A study of Mus musculus and Rattus norvegicus with 6 samples.

Results

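Hepatokines are proteins that the liver secretes and that act on other organs or on the liver itself. The 9 genes described here encode 7 secreted factors of this kind or their subunits, 1 coreceptor and 1 secreted antagonist: Fgf21, Klb, Angptl4, Gdf15, Inhbe, Inhba, Fetub, Ahsg and Fst. They were taken by symbol, through all probe sets that the platform annotation gives to these names alone. In mice 8 of the 9 genes had 12 probe sets, of 18193 genes and 34945 probe sets with 1 symbol. In rats 8 of the 9 had 10 probe sets, of 14217 genes and 20826 probe sets. Gdf15 carried no such probe set on the mouse array, and Klb none on the rat array, so 7 genes were represented in both species.

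The arrays measured liver RNA of male animals aged 20 weeks, collected 6 h after an intraperitoneal injection. Mice had a C57/BL6J background and were either wild type (WT) and given saline, homozygous for Lepob and given saline, or homozygous for Lepob and given recombinant murine leptin, at a dose written as 1 microg/mg. The WT animals were littermates of the mutants. Rats had an F344/NSlc background and formed the same 3 groups, with Lepmkyo as the mutant allele. Both alleles leave the animals without functional leptin, the hormone of fat tissue that restrains feeding, and the same recombinant murine protein was used in rats. The rat labels conflict, since 1 field spells the genotype differently and another names Lepob, so the descriptions and the design text were followed. Each group was 1 array. Whether its RNA came from 1 animal or from a pool was not stated, no spread between animals could be measured, and no test or p-value is given. A gene is called higher or lower where the signals of a pair of arrays differed at least 2-fold.

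A floor was set for each species at the median over its 3 arrays, 82.7 for mice and 97.0 for rats, and weaker signals were raised to it before a ratio was taken. A fold with an array under the floor is written as "at least". Where several probe sets measured a gene, the brightest stood for it. Probe sets for a single gene differed among themselves in log2 ratio with an SD of 0.43 for the genotype ratios of both species and of 0.24 for the leptin ratios of both. This probe set spread was taken within a pair of arrays, so it does not cover differences between animals. Since it was larger for the genotype ratios, it may hold more than technical error. Hepatocyte markers were bright on all arrays, and their summed signal was 273585 in the WT mouse and 221404 in the saline mutant, and 292284 and 258527 in the rats. None of 8 measured markers in mice and 1 of 9 in rats was at least 2-fold lower, Tat at 6.94-fold. Stellate and fibroblast markers summed to 14214 and 22371 in mice and to 3533 and 9841 in rats, with 0 of 9 and 4 of 8 measured markers at least 2-fold higher in the mutant. Macrophage markers summed to 19313 and 27935 in mice (3 of 9 higher) and to 13856 and 17877 in rats (1 of 7 higher). Of all genes measured, 4.46% in mice and 2.99% in rats were at least 2-fold higher. Of the adipocyte markers, all 3 with a probe set in mice (Adipoq, Retn and Lep) and 3 of 4 in rats (Adipoq, Plin1 and Lep) were under the floor on every array of the species. The fourth in rats, Cfd, had 599.3 in WT, 462.8 in the saline mutant and 502.0 in the leptin mutant. In bulk liver, fewer cells of a type and less RNA per cell cannot be told apart.

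Fgf21 is a fasting and stress hormone of the liver that signals through FGF receptors together with the coreceptor beta-klotho, which Klb encodes. Its transcription is driven by the fatty acid sensor PPARA and by ATF4, the transcription factor of the integrated stress response. Gdf15, a distant member of the TGF-beta family that reduces appetite through a receptor of the hindbrain, and Inhbe, which encodes the activin beta E subunit made almost wholly in liver, are also known targets of cellular stress. Inhba encodes the beta A subunit of activin A, and Fst encodes follistatin, a secreted protein that binds and neutralises activins. Angptl4 is a fatty acid-induced inhibitor of lipoprotein lipase. Ahsg and Fetub encode fetuin-A and fetuin-B, abundant plasma proteins of the cystatin superfamily. Fetuin-A inhibits the insulin receptor and fetuin-B an egg coat protease.

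In leptin-deficient liver the stress-responsive hormones Fgf21 and Inhbe were higher than in WT in both species, by 5.81-fold and 3.05-fold in mice and by 3.05-fold and 2.63-fold in rats. Gdf15 was at least 2.95-fold higher in the rat, the only species in which it was measured. Inhba, Fst and Fetub were lower in the mouse mutant, and in the rat none of the measured members was 2-fold lower. Injected leptin moved no measured member by 2-fold within 6 h in either species. Of the 8 members measured in mice, 2 were past 2-fold upward and 3 downward in the saline mutant, beside 4.46% and 3.71% of all 11956 genes measured. Of the 7 measured in rats, 3 were past 2-fold upward and 0 downward, beside 2.99% and 1.45% of 9817 genes. The same shares stand beside the genotype counts of the gene lists below. The median log2 ratio of the members was -0.16 in mice, against -0.03 over all genes, and 0.71 in rats, against 0.04.

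**Figure D1:**
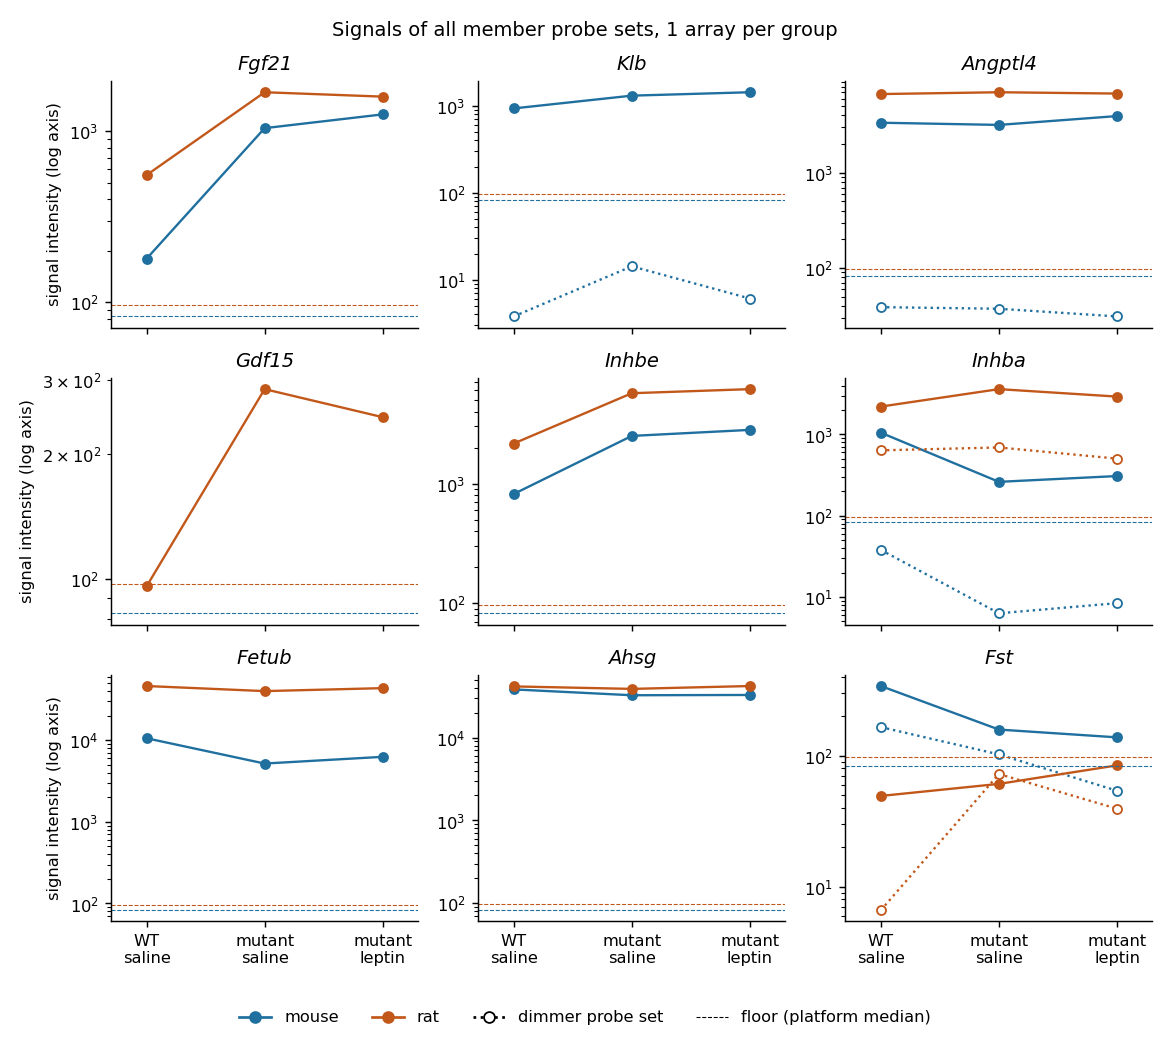
Signal intensity (log axis) of every member probe set on the WT saline, mutant saline and mutant leptin array, in mice (blue) and rats (orange), 1 array per point. Filled points joined by solid lines are the brightest probe set of a gene, open points with dotted lines a dimmer one, and dashed lines the floors of 82.7 and 97.0. Fgf21 and Inhbe are higher on both mutant arrays than on the WT array in both species, and mouse Inhba is lower on both mutant arrays.

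Fgf21 had a signal of 180.0 in the WT mouse, 1045.1 in the saline-injected mutant and 1258.1 in the leptin-injected mutant. In rats its signals were 555.2, 1695.3 and 1597.9 in the same order. In both species the WT array was the low one and the mutant arrays lay close together. The saline mutant was thus 5.81-fold above WT in mice (log2 ratio 2.54) and 3.05-fold above WT in rats (1.61). These ratios ranked 58th from the highest of 11956 genes in mice and 76th of 9817 in rats. With the floor at the 75th percentile, which lies above the WT signal of the mouse, the mouse log2 ratio was 1.44.

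Inhbe was likewise lowest in WT in both species. Its signals were 819.1 in the WT mouse, 2502.0 in the saline mutant and 2809.3 in the leptin mutant. In rats they were 2161.0, 5683.0 and 6148.3. Both mutant arrays lay well above WT, and leptin-injected mutants had the highest signal in both species. The saline mutant exceeded WT by 3.05-fold in mice (log2 ratio 1.61, rank 164 from the highest) and by 2.63-fold in rats (1.39, rank 122). Each species carried 1 probe set for Inhbe and 1 for Fgf21, so agreement between probe sets could not be examined for either gene.

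The mouse promoters of Fgf21 and Inhbe are shown because these members were higher together in both species and their windows hold the same letters. The sequences are those of RefSeq on build GRCm38.p6, read 5′ to 3′ on the gene's strand, over the 250 bases before the annotated start. Capitals in both mark TTGCATCA, the reverse complement of the composite site TGATGNAA to which ATF4 binds together with CHOP and related factors. The second run of capitals in Fgf21 is CACGTG, the E-box.
Fgf21, chr7:45615491-45615740, minus strand: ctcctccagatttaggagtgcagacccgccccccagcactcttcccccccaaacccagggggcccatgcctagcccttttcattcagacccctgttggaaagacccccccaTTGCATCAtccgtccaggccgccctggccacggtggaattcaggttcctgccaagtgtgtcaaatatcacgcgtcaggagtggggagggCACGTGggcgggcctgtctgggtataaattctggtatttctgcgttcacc
Inhbe, chr10:127351849-127352098, minus strand: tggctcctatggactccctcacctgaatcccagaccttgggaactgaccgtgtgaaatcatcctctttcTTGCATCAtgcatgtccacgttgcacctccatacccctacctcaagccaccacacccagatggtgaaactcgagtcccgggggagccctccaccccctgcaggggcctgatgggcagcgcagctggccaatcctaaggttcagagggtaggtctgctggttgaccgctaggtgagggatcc
The match lies at positions -139 to -132 in Fgf21 and -181 to -174 in Inhbe, counted back from the start. Both strands of the table's windows of 300 bases, which also hold the first 50 transcribed bases, were searched. TGATGNAA occurred in 1304 of 32851 windows (3.97%), and in 2 of the 9 windows that the table gives for 7 of the members. CACGTG occurred in 7.15% of windows, among them that of Fgf21 and 1 of the 2 Gdf15 windows. A direct repeat of AGGNCA with 1 base between, the kind of element that PPARA and RXRA bind, occurred in 0.381% of windows and among members in the other Gdf15 window. None of these matches overlapped another. Such matches describe the letters of the mouse windows and are not evidence of binding. Angptl4 and Fst had no entry in the table.

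Gdf15 was measured in rats only. Its signal was 96.0 in WT, 285.9 in the saline mutant and 244.8 in the leptin mutant. The WT array was under the floor and both mutant arrays were well above it. The saline mutant was at least 2.95-fold above WT (log2 ratio 1.56, rank 84 from the highest). When the floor value was added to every signal in place of raising low signals to it, the log2 ratio was 0.99, just under 2-fold.

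Klb, the coreceptor that FGF21 needs, was measured in mice only. Its signals were 932.2 in WT, 1306.8 in the saline mutant and 1430.1 in the leptin mutant. The saline mutant was 1.40-fold above WT, under the 2-fold threshold and close to the probe set spread (log2 ratio 0.49 against 0.43). Its other probe set stayed between 3.8 and 14.3, far under the floor. None of the 5 measured genes among the FGF receptors and related ligands was 2-fold apart in mice. Their median log2 ratio was -0.53, and Fgfr4, the main FGF receptor of hepatocytes, had signals of 806.2 in WT and 469.8 in the saline mutant, 1.72-fold lower on its brightest probe set. Fgfr2 was 1.71-fold and Fgfr3 1.44-fold lower on theirs. Dimmer probe sets of Fgfr2 and Fgfr4 had log2 ratios down to -2.02 and -1.50. In rats 1 of 6 was 2-fold apart, Fgf1, a receptor ligand of broad specificity, at 2.39-fold higher, while Fgfr4 differed by 1.03-fold and the median was 0.12.

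Angptl4 was bright and nearly level. It had signals of 3355.0, 3182.1 and 3941.4 in the WT, saline mutant and leptin mutant mouse, and of 6710.6, 7012.2 and 6791.4 in the rats. The genotype ratios were 1.05-fold lower in mice and 1.04-fold higher in rats, far within the probe set spread, and the sign of the mouse ratio turned when arrays were centred on their medians (log2 ratio 0.18). The mouse value came from a probe set of a type that can bind several transcripts, and the other mouse probe set of the gene lay between 31.0 and 38.8, under the floor. Angptl8, an insulin-induced secreted protein of lipid metabolism, had signals of 1914.9, 1241.3 and 788.1 in WT, saline mutant and leptin mutant mice and of 2306.8, 4672.9 and 6672.4 in rats. Its order over the arrays was thus the reverse in the species. The saline mutant was 1.54-fold below WT in mice and 2.03-fold above WT in rats, where the log2 ratio of 1.02 became 0.99, just under the threshold, in 1 of 7 other settings. The leptin mutant was 2.43-fold below WT in mice and 2.89-fold above WT in rats. Angptl6 was 2.20-fold higher in the saline mutant rat and 1.15-fold higher in the mouse. Fgl1, a hepatocyte-secreted fibrinogen relative, was 1.76-fold lower and Angptl7 1.61-fold lower in the mouse. In all, 0 of 6 measured genes of the angiopoietin-like and fibrinogen-like list were 2-fold apart in mice and 2 of 5 in rats, both higher.

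Of the lipoprotein lipase system, the target of these inhibitors, 1 of 7 genes was 2-fold apart in mice and 0 of 7 in rats. Apoc2, the cofactor that activates lipoprotein lipase, was 2.57-fold higher in the saline mutant mouse, with signals of 31209 against 12156. In rats it differed by 1.05-fold. The largest ratio on the list in rats was that of Apoa5, an apolipoprotein that lowers plasma triglyceride, at 1.90-fold lower. Lpl itself had signals of 210.8 and 310.2 in the WT and saline mutant rat, 1.47-fold apart.

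**Figure D2:**
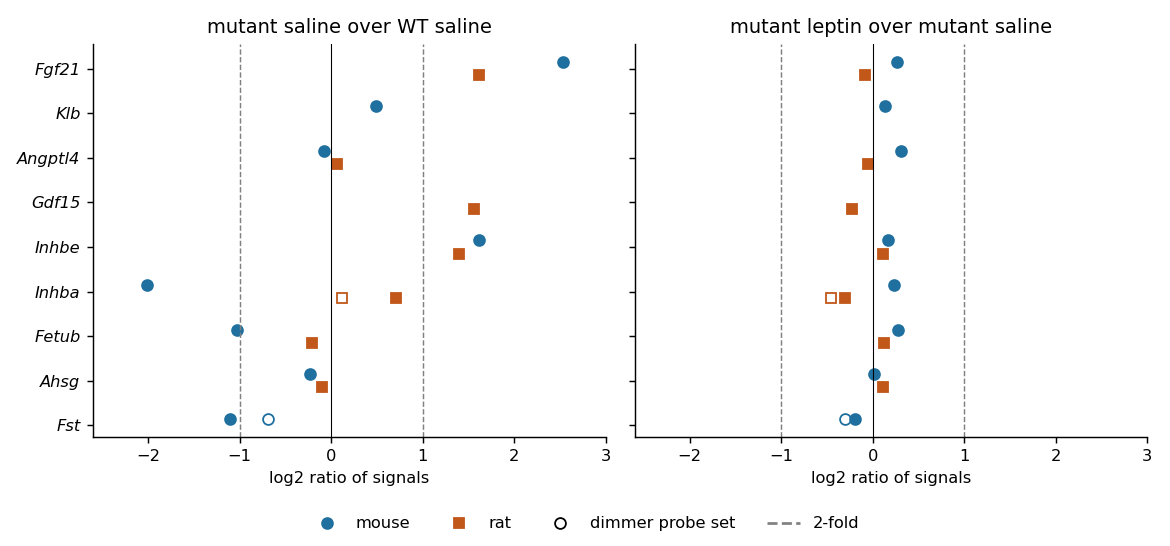
Log2 ratio of signals of each member probe set with at least 1 of the compared arrays at the floor, for mutant saline over WT saline (left) and mutant leptin over mutant saline (right). Circles are mice, squares are rats, open symbols are dimmer probe sets, and dashed lines mark 2-fold. Genotype ratios reach from -2.01 (Inhba, mouse) to 2.54 (Fgf21, mouse), and all leptin ratios lie between the 2-fold lines.

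Inhba had opposite genotype ratios in the species. In mice its signal was 1051.8 in WT, 261.2 in the saline mutant and 307.9 in the leptin mutant. The WT array stood alone as the high one, and the saline mutant was 4.03-fold below it (log2 ratio -2.01, rank 54 from the lowest of 11956). A further mouse probe set had 38.0, 6.3 and 8.4, the same order but wholly under the floor. In rats the brightest probe set had 2204.2 in WT, 3612.5 in the saline mutant and 2924.4 in the leptin mutant, a genotype ratio of 1.64-fold higher (0.71). The other rat probe set had 637.9, 692.1 and 504.4, a genotype ratio of only 1.08-fold higher. Neither rat probe set reached 2-fold, and their log2 ratios were 0.71 and 0.12. The probe set spread of 0.43 is an SD around the mean of a gene, so it is no measure for their difference. Inhba is also expressed by stellate cells and macrophages, whose markers had higher summed signals in the mutants of both species, and their part in the ratios was not tested.

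The other beta subunits of the activin family gave a further pattern. Inhbb, which encodes the beta B subunit, had signals of 141.7, 430.1 and 375.3 in mice, 3.04-fold higher in the saline mutant, but a further probe set had 149.5, 26.2 and 152.9 and a log2 ratio of -0.85. In rats Inhbb had 3.5, 220.6 and 132.7 and was at least 2.27-fold higher. Inhbc, the liver-specific beta C subunit, went the other way in both species. Its signals were 1659.0, 888.1 and 1083.6 in mice, 1.87-fold lower in the saline mutant, and 1066.1, 383.7 and 604.1 in rats, 2.78-fold lower. Within the family, Inhbe was thus at least 2-fold higher in both species and Inhbc below WT in both, with only the rat ratio of Inhbc past 2-fold. Of the 13 measured genes on the list of inhibin subunits, activin receptors and SMAD proteins, 2 were 2-fold higher in mice (Inhbb and Smad6, an inhibitory SMAD, at 2.26-fold) and 1 lower (the receptor Acvr2b, at least 2.13-fold, a call that held in 2 of the 6 other settings that gave a value). In rats 1 of 10 was higher and 1 lower. The medians were 0.03 and 0.24.

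Fst had signals of 339.7, 158.0 and 137.8 in WT, saline mutant and leptin mutant mice on its brightest probe set and 165.0, 102.1 and 53.9 on the other. Both probe sets gave the same order, with WT highest. The brightest gave a saline mutant 2.15-fold below WT (log2 ratio -1.10, rank 323 from the lowest) and the other 1.62-fold below (-0.69). The call ended in 4 of 6 other settings, with log2 ratios of -0.81 at the smallest. In rats no array reached the floor with either probe set. Their signals were 49.2, 60.8 and 84.2 and 6.6, 72.3 and 39.3, so no ratio was taken. Of 3 measured follistatin relatives, 0 in mice and 1 in rats were 2-fold apart. Sparcl1, a matrix protein of the SPARC family, was 2.35-fold higher in the saline mutant rat, next to the stellate and fibroblast markers that were higher on the same array.

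The fetuins are neighbouring protein-coding genes on mouse chromosome 16. Fetub had signals of 10546, 5168 and 6246 in WT, saline mutant and leptin mutant mice and of 45972, 39839 and 43319 in rats. In mice the WT array was the high one, and the saline mutant was 2.04-fold below it (log2 ratio -1.03, rank 397 from the lowest). That value is barely past the threshold and was -0.77 with arrays centred on their medians. In rats the ratio was 1.15-fold lower. Ahsg had signals of 38078, 32367 and 32619 in mice and 41369, 38609 and 41808 in rats, 1.18-fold and 1.07-fold lower in the saline mutant. The mouse sign turned with that centring (log2 ratio 0.02) and the rat sign with quantile normalization (0.02), so neither ratio of Ahsg has a settled direction. On the rat array only 18 of 31042 probe sets were brighter than that of Fetub and 28 brighter than that of Ahsg, and in mice 84 of 45037 were brighter than Ahsg. Whether signals this high still scaled with RNA was not tested. The summed hepatocyte markers were also lower in the mutants, as given above, and their part in the fetuin ratios was not tested. Of their relatives in the cystatin superfamily, 1 of 4 was 2-fold apart in mice, the intracellular protease inhibitor Cstb at 2.33-fold higher, and 0 of 3 in rats. In rats Cst3, the secreted inhibitor cystatin C, had the largest ratio of the list at 1.73-fold higher, and the histidine-rich glycoprotein gene Hrg was 1.12-fold lower.

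**Figure D3:**
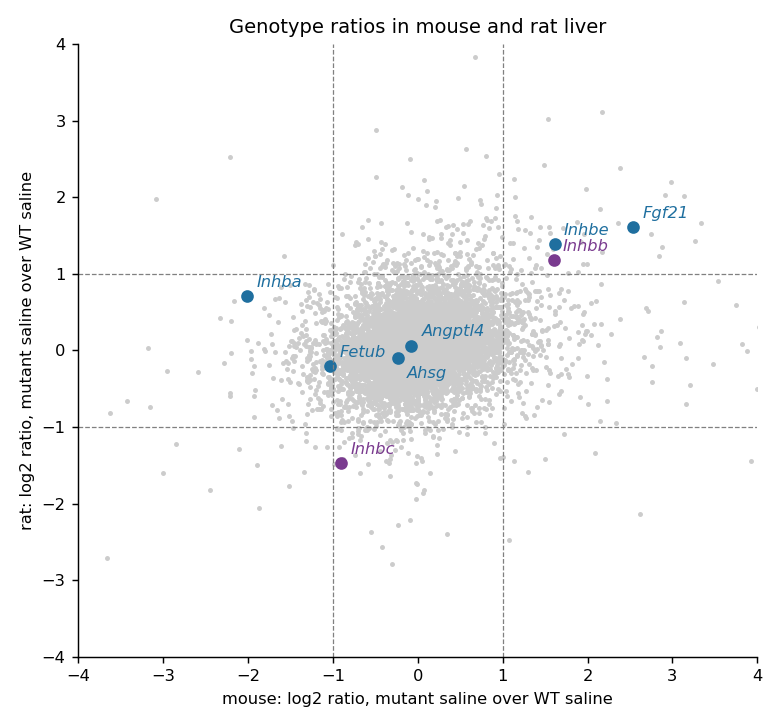
Log2 ratio of mutant saline over WT saline in mice (x axis) against rats (y axis) for genes measured in both species (grey), with the 6 members measured in both in blue and the related subunits Inhbb and Inhbc in purple. Dashed lines mark 2-fold, and 12 genes beyond a log2 ratio of 4 lie outside the axes. Fgf21 and Inhbe lie in the upper right corner past 2-fold in both species, and Inhba at -2.01 in mice and 0.71 in rats.

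The mouse and rat ratios rest on different arrays, animals and platforms. Of 8303 genes measured in both species by identical symbol, 61 were at least 2-fold higher in the saline mutant of both, 0.735% of them. These are 16.9% of the 360 genes higher in mice and 25.3% of the 241 higher in rats. Of the 6 members measured in both, Fgf21 and Inhbe were among the 61, and none was 2-fold lower in both. The mouse log2 ratio exceeded that of the rat by 0.93 for Fgf21 and by 0.22 for Inhbe, while for Inhba it was 2.72 lower.

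The list of regulators of Fgf21 and Angptl4 transcription, which leaves out the stress genes given below, had medians near those of all genes. A list median does not show its single genes. Of 12 regulators of Fgf21 and Angptl4 transcription, 2 were 2-fold higher and 1 lower in the saline mutant mouse, with a median of -0.09. Ppara had 7563.5 in the saline mutant against 2229.8 in WT by its brightest probe set, 3.39-fold higher, and its other probe sets had log2 ratios of 0.73 and 0.69. Pparg was 3.95-fold higher and Mlxipl, the carbohydrate sensor, 2.41-fold lower. The Ppara call ended with the median over its probe sets (log2 ratio 0.73). In rats 0 of 10 were 2-fold apart, with a median of -0.04. The largest ratios there were those of Nr1d1, a clock repressor, at 1.98-fold, the bile acid receptor gene Nr1h4 at 1.51-fold and Ppard, with 377.4 against 251.3, all higher in the saline mutant. Rxra came next and was lower, with 37.7 in the saline mutant against 140.7 in WT. Its ratio of at least 1.45-fold is a bound, so it could lie past 2-fold. The rat probe set of Ppara lay between 8.4 and 31.3, under the floor, so the array gave no ratio for it.

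Of the integrated stress response genes, 5 of 13 were 2-fold higher and 0 lower in the saline mutant rat, and 2 of 13 higher and 0 lower in the mouse. The difference between species was not tested. Over all genes measured, 2.99% were higher and 1.45% lower in rats, and 4.46% and 3.71% in mice. Asns, the asparagine synthetase and a target of ATF4, had signals of 117.1, 857.4 and 1092.7 in rats, 7.32-fold higher in the saline mutant. In mice it had 195.1, 139.0 and 221.0, 1.40-fold lower. Atf3, a stress-induced repressor, had 157.5 in the WT and 629.4 in the saline mutant rat, and in mice it was at least 2.22-fold higher. Trib3, a pseudokinase induced by ATF4 and CHOP, was 3.01-fold higher in rats and 2.27-fold in mice, and all of its probe sets agreed in sign. Its mouse call held in 5 of 7 other settings. Chac1, a glutathione-degrading enzyme, was 2.28-fold and Ddit4, an inhibitor of mTORC1, 2.17-fold higher in rats. With the floor at the 75th percentile, 452.7 in rats, the WT signals of Asns, Atf3, Chac1 and Ddit4 were all raised to it. Their log2 ratios were then bounds, at least 0.92 for Asns, 0.48 for Atf3, 0.72 for Chac1 and 0.39 for Ddit4. These bounds lie under 2-fold and cannot show whether the ratios do. Trib3 alone of the 5 kept its call in all 7 other settings. The list medians were 0.26 and -0.01. Atf4 itself was 1.32-fold higher in the saline mutant rat and 1.29-fold lower in the mouse. Ppp1r15a was the furthest below WT on the list in both species, 1.57-fold lower in rats and 1.88-fold in mice.

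Few of the other hepatokines were 2-fold apart. Of 12 measured in mice, 1 was 2-fold higher and 1 lower, and of 11 in rats 0 were 2-fold apart. Enho, which encodes the peptide adropin, had signals of 899.6, 42.3 and 11.0 in mice on its brightest probe set and 734.1, 5.9 and 8.4 on another. The saline mutant was at least 10.9-fold below WT. In rats Enho stayed between 5.0 and 10.6, under the floor. Serpinb1a, a protease inhibitor, was 2.05-fold higher in the mouse mutant. That call held in 4 of 7 other settings. Manf was just under the threshold in the mouse, with a log2 ratio of -0.99, and stayed under it in 6 of 7 other settings. In rats the largest ratios were those of Tsku, a small leucine-rich protein, at 1.73-fold lower, Serpinb1a, with 298.2 against 198.4, and Lect2 at 1.45-fold lower. On the list of the GDF15 receptor and related GDF and BMP ligands, 0 of 6 measured in mice and 0 of 2 in rats were 2-fold apart. The largest ratios were those of Bmp4 in mice, 1.32-fold lower, and Bmp6 in rats, 1.52-fold higher.

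**Figure D4:**
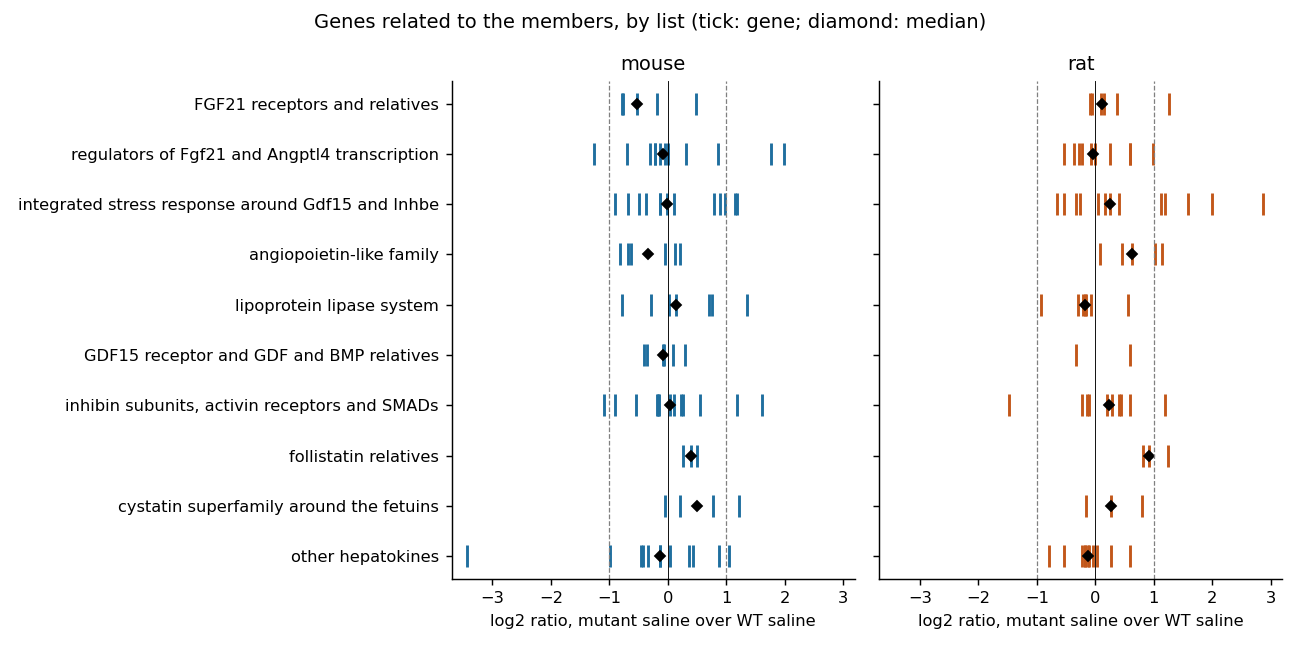
Log2 ratio of mutant saline over WT saline for the measured genes of 10 lists related to the members, in mice (left) and rats (right). Each tick is a gene, each diamond the median of a list with at least 3 measured genes, and dashed lines mark 2-fold. The leftmost tick is Enho in mice at -3.44, a bound, and the rightmost is Asns in rats at 2.87.

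The 6 h time point was chosen to catch early responses, ahead of shifts in feeding or weight. Whether feeding or weight had shifted by then was not tested here. At that time, 0 of 8 members in mice and 0 of 7 in rats were 2-fold apart between the leptin and the saline mutant, beside 0.425% of 11536 and 0.515% of 9705 genes called in either direction. A count of 0 is near that background. In mice Angptl4 was 1.24-fold, Fetub 1.21-fold, Fgf21 1.20-fold, Inhba 1.18-fold, Inhbe 1.12-fold, Klb 1.09-fold and Ahsg 1.01-fold higher, and Fst 1.15-fold lower. Only the log2 ratios of Angptl4 (0.31), Fetub (0.27) and Fgf21 (0.27) were larger than the probe set spread of 0.24. The median over the mouse members was 0.20, against -0.0022 over all genes. In rats Inhba was 1.24-fold lower, with its other probe set at a log2 ratio of -0.46, and Gdf15 1.17-fold lower. Fgf21 and Angptl4 differed by 1.06-fold and 1.03-fold, and Fetub, Ahsg and Inhbe were 1.09-fold, 1.08-fold and 1.08-fold higher. The median was -0.05, against 0.01 over all genes.

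Among the related genes, 1 of 79 was 2-fold apart after leptin in mice and 2 of 69 in rats, all lower. The shares of all genes called in either direction were 0.425% in mice and 0.515% in rats. Nr1d1 was 2.19-fold lower in the mouse. In the rat Atf3 was 2.01-fold lower, at 312.9 against 629.4. Ppargc1a, a coactivator of fasting genes, had 128.5 against 257.1 in the rat, and a dimmer probe set gave a log2 ratio of -1.12. Both rat calls were at the threshold and held in only 3 of 7 and 3 of 6 other settings. Neutrophil markers summed to 800.3 in the saline and 1809.1 in the leptin mutant mouse, with 3 of 4 measured markers 2-fold higher, and their part in the mouse leptin ratios was not tested.

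Set against WT, the leptin-injected mutants gave similar counts. In mice 2 of 8 members were 2-fold higher and 2 lower, beside 3.98% and 3.46% of 11958 genes. In rats 3 of 7 were higher and 0 lower, beside 2.83% and 1.61% of 9742. Fgf21 was 6.99-fold above WT in the leptin mutant mouse and 2.88-fold in the rat, and Inhbe 3.43-fold and 2.85-fold. Gdf15 was at least 2.52-fold above WT in the rat. In mice Inhba was 3.42-fold and Fst 2.47-fold below WT, while Fetub, at 1.69-fold below, was under the threshold. These ratios share the WT array with the saline comparison and the leptin mutant array with the leptin comparison, so they are no independent support for either.

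Genes whose pattern was most like that of a member were sought among 8462 genes measured in both species, by the Euclidean distance over 6 log2 signals, each species centred on the mean of its 3 arrays. As a description, the nearest to Fgf21 was Gpnmb, a macrophage glycoprotein, at a distance of 0.26, with genotype ratios of at least 6.70-fold in mice and 2.86-fold in rats. It was followed by Vnn1, a PPARA-induced pantetheinase (0.31), Wfdc2 (0.47), Mmp12, a macrophage elastase (0.49), and Ubd (0.57). The nearest to Inhbe were Vwf, a protein of endothelial cells and platelets (0.24), Klf6 (0.34), Acot9 (0.35), Rtn4 (0.40) and Lrtm2 (0.42). For Inhba they were Foxa1 (0.32), Cela1 (0.35), Nudt7 (0.39), Cyp26a1 (0.40) and Fdps (0.44), and for Fetub Mrps27 (0.04), Utp14a (0.11), Ubxn4 (0.11), Rpe (0.11) and E2f6 (0.12). A distance over 6 arrays says only that signals were alike on them, and the arrays of a species share the WT and saline mutant as common points.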

How the data were processed

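Total liver RNA was extracted with Trizol and labelled with biotin for Affymetrix arrays, per the labels' protocols. MAS5 is the only tool that the submitters' processing notes name, without a version, and the deposited signal intensities are linear. Means trimmed by 2% at both ends ran from 496 to 497, while medians were 77.0 to 91.9 in mice and 93.6 to 99.3 in rats. Detection calls and image files were not used here, so a floor stood in for calls, and the number of arrays limits the precision.

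Gene symbols are those of the platform annotation, for mice updated by gene identifier to assembly GRCm38.p6. Probe sets with several symbols (932 in mice, 436 in rats) or none (9160 and 9780) were left out. Ratios were taken on the log2 scale from the deposited intensities with Python 3.11.15 and pandas 2.3.3. No model was fitted. The calling rule was run on simulated data with genes of any brightness, in which only bright genes were given a change, always well past 2-fold. That run covered neither changes near 2-fold, nor changes in genes near the floor, nor differences between animals. The alternatives were quantile normalization, centring arrays on their medians, floors at the 25th and 75th percentiles, adding the floor value, the median over probe sets and dropping probe sets of the types able to bind several transcripts. Members, lists and rules were chosen with earlier results of these data known. Named were all members, list genes past 2-fold (where none or more than 4 were, up to 4 with the largest ratios), the 5 nearest patterns for each of 4 members, and the same genes in the other species. Ddit4 in rats, Manf in mice, Atf4, Ppp1r15a, Tat and the dimmer probe sets were chosen after their values were seen.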

Additional observations from a re-analysis of the deposited data

Results flagged for a closer look

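Inhba met a rule for values that run in opposite directions in different groups. Its log2 ratio of mutant saline over WT saline was -2.01 in mice and 0.71 in rats, both past 1.5-fold. The difference was not tested, since each group is 1 array. On the dimmer rat probe set the ratio was 0.12, and with the median over probe sets the rat ratio was 0.42.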

How the results depend on the processing

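Of 45 member ratios over the 6 comparisons, 7 alternatives gave 305 values in all, and 10 could not be given because no compared array reached the floor. Of these, 297 kept the call, 298 moved by less than the probe set spread and none of the called ratios turned sign. Most of the 45 ratios were under 2-fold to begin with, and all 8 values with another call came from called ratios. For members with 1 probe set, the alternatives on the choice of probe sets could not change the value. Apart from Fst, Fetub and Gdf15, every member kept its call in all alternatives that gave a value. With arrays centred on their medians, 3 members instead of 5 were 2-fold apart between saline mutant and WT mice, since Fetub and Fst were under 2-fold. That centring moved the median over all mouse genes by 0.24 in the saline genotype comparison and by 0.21 against leptin-injected mutants, and the share of called genes that were higher from 54.6% to 80.4% and from 53.5% to 76.5% (65.4% after quantile normalization in the first). In the rat leptin comparison that share moved from 46.0% to 59.2%. Counts over all genes depended on the floor. With the floor at the 25th and 75th percentile, 2325 and 465 genes instead of 976 were 2-fold apart between saline mutant and WT mice, 844 and 9 instead of 49 after leptin, and 2240 and 413 instead of 890 between leptin mutant and WT. In rats the counts were 1147 and 186 instead of 436, 507 and 13 instead of 50, and 1151 and 186 instead of 433. Adding the floor value gave 31 in mice after leptin and 276, 20 and 282 in rats. No paired analysis was possible because each group holds 1 array. Rat Gdf15 was under the floor in WT, so its ratio is a bound, and rat Fst gave no ratio.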
